A study of Homo sapiens with 12 samples.

Results

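The genes described here are the expressed members of the ZNF family of C2H2 zinc finger genes in HK2 cells, which are immortalized proximal tubular epithelial cells (TECs) of the human kidney. They were chosen by symbol and by level, as the genes named ZNF with a number and an optional A or B whose mean expression in the 4 libraries without short-chain fatty acids (SCFAs) was at least 10 CPM, which is the count scaled to a common library total. Of 58278 listed genes, 505 carry such a symbol and 245 reached this level. The other 260 were below it, and 8 of these had no count of 1 or more in any library. Over all symbols, 9847 genes reached the same level, and they serve below as the comparison. Members ranged from 10.0 to 239.9 CPM with a median of 19.7, and 125 of them were under 20 CPM. Just above the limit stood ZNF215 at 10.0, ZNF239 at 10.1 and ZNF689 at 10.2 CPM, and just below it ZNF830 at 9.99, ZNF681 at 9.91 and ZNF703 at 9.83 CPM.

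All cells were HK2, in 6 groups of 2 biological replicates. Ctrl cells were untreated, and TN cells received TNF-α at 5 ng/mL for 3 h. PRTN and BUTN cells received 15 mM propionate or 3 mM butyrate for 24 h before the same TNF-α, and TNPR and TNBU cells received the same SCFA doses for 24 h after it. The doses of propionate and butyrate therefore differ. Every SCFA group also received TNF-α. Cells given an SCFA but no TNF-α, and cells cultured longer after TNF-α with no SCFA, were not analysed here. An effect of the SCFAs and one of the longer culture after TNF-α cannot be told apart in TNPR and TNBU. HK2 is 1 line, so the replicates measure the spread between cultures and not between people.

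A C2H2 zinc finger is a short fold of protein held by a zinc ion, and tandem arrays of fingers read DNA sequence. Many ZNF genes of primates encode a KRAB domain before the fingers. The KRAB domain binds the corepressor KAP1 (gene TRIM28), which recruits the histone methyltransferase SETDB1, HP1 proteins and the NuRD deacetylase complex, and KRAB proteins are best known for silencing transposable elements. ZNF genes arose by repeated tandem duplication and lie in groups, many of them on chromosome 19. Other ZNF proteins lack KRAB and act as activators, partners of chromatin complexes or RNA-binding proteins. In the reference annotation 142 of the 245 members had a KRAB A box, the part that binds KAP1, and 103 had none. The proteins held a median of 10 fingers by a simple pattern match, 12 in members with KRAB and 8 in those without, with a range from 0 to 36. Chromosome 19 held 96 members (39.2%) against 6.17% of all genes at the same level, and it held 54.9% of the members with KRAB and 17.5% of those without.

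The promoters of 214 of the 245 members were found in RefSeq on GRCh38.p14, as 250 bases before and 50 bases after the first listed start. The word CCGGAA, the core of sites of ETS factors, lay on either strand in 58.4% of these 300-base windows, against 32.6% of 7710 windows of genes at the same level and 17.6% of all 27305 windows. Members with KRAB had it in 67.5% and those without in 45.5%. The GC box GGGCGG, a word of SP and KLF factors, lay in 65% of member windows, 72.7% of windows at the same level and 44.6% of all, and the CCAAT box CCAAT in 44.9%, 37.3% and 35.7%. Both strands were searched, matches of different words could overlap, and a match only describes the window. The 250 bases before the start are shown for ZNF783 and ZNF629, which were among the largest falls with SCFAs, and for ZNF611, ZNF468 and ZNF347, neighbouring KRAB genes that rose. Capitals mark GGGCGG or its reverse complement. The windows are chr7:149261946-149262195, plus strand for ZNF783, chr16:30787206-30787455, minus strand for ZNF629, chr19:52735045-52735294, minus strand for ZNF611, chr19:52857620-52857869, minus strand for ZNF468 and chr19:53159054-53159303, minus strand for ZNF347.
ZNF783: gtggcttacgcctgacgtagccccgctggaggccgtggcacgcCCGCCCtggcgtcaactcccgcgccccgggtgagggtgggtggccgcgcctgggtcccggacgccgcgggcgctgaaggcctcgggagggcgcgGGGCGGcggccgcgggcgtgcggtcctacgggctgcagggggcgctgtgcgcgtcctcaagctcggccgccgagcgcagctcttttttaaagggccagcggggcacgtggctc
ZNF629: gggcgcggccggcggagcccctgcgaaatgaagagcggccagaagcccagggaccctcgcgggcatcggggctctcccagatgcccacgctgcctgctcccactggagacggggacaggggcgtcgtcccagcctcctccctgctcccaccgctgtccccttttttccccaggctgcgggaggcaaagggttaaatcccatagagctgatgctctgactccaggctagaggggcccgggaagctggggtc
ZNF611: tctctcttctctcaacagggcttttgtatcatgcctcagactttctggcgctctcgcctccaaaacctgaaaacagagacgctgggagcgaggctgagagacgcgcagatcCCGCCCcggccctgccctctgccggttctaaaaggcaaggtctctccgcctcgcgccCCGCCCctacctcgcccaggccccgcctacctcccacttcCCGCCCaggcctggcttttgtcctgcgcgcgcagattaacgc
ZNF468: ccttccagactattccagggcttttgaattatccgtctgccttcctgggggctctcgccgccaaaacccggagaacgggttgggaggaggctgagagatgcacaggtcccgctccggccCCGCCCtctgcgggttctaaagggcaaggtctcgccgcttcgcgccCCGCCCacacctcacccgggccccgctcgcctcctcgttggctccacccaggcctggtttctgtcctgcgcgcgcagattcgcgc
ZNF347: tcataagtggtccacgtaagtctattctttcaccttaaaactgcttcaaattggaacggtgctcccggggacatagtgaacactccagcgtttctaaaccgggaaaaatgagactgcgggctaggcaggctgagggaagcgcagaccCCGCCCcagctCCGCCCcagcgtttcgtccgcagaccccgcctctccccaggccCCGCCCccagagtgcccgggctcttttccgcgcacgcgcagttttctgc
The windows of ZNF611 and ZNF468 were 78.1% identical over their aligned length, and those of ZNF611 and ZNF347 were 54% identical. ZNF629 had no GC box in its window and ZNF783 had 2. Where all 8 SCFA libraries lay below the 4 others, CCGGAA was found in 56.6% of 129 windows, where all 8 lay above them in 58.8% of 17, and in the remaining members in 61.8% of 68.

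Libraries held 27269986 to 33851130 expected counts, so that 3 counts stand at 0.0886 to 0.11 CPM and the lowest member value in any library was 44 counts. Replicates differed by more than sampling noise, and most in TNPR and TNBU, whose chi-square statistic per gene was 12.9 and 15.3 against 2.85 to 5.48 in the other groups. Of 9 proximal tubule markers, 5 reached 1 CPM in a library and LRP2, SLC34A1, SLC22A6 and SLC22A8 did not. The summed level of that list was 184 to 228 CPM for Ctrl and TN and 73.9 to 95.5 CPM with SCFAs, and GGT1 held most of it (179 to 221 and 59.95 to 74 CPM). LRP2, CUBN, AQP1 and ANPEP went the other way, AQP1 from 0.359 to 0.721 CPM for Ctrl and TN to 5.98 to 15.1 CPM with SCFAs. The 7 epithelial markers summed to 1604 to 1687 CPM for Ctrl and TN and 1972 to 2571 CPM with SCFAs, of which KRT8 and KRT18, both higher with SCFAs, held most. KRT19 went from 4.47 to 5.15 CPM to 82.3 to 121 CPM and CDH1 from 0.0745 to 0.294 CPM to 8.37 to 14.4 CPM. In contrast EPCAM went from 55.1 to 58.1 CPM to 13.3 to 23.2 CPM and PAX8 from 362 to 414 CPM to 128 to 160.1 CPM, and the ranges of KRT7 overlapped. For 5 fibroblast markers the sums were 49.0 to 55.6 and 199.6 to 247.6 CPM, for 4 endothelial markers 0.143 to 0.287 and 2.21 to 3.64 CPM, and for 4 leukocyte markers 30.3 to 36.3 and 25.9 to 51.9 CPM, with PTPRC at 0.152 CPM or less everywhere. COL1A1 and LUM held most of the fibroblast sums and stood higher with SCFAs, as did COL1A2 and PDGFRA, while DCN went from 0.681 to 1.12 CPM to 0.431 to 0.608 CPM. The part of these shifts in the results below was not tested.

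With SCFAs most expressed ZNF genes stood lower than in TN cells. Together the members took 0.714% to 0.752% of the counts in the 4 Ctrl and TN libraries and 0.592% to 0.645% in the 8 SCFA libraries. They were selected on their level in those 4 libraries, so genes low there and high with SCFAs are missing from this sum. The same sum was not taken for the other genes at that level. Differences were tested with limma-voom over all 24342 genes above a count filter, and calls required a fold change over 1.5 together with a Benjamini-Hochberg adjusted p under 0.05. In PRTN vs TN 87 members were called lower (35.5%) and 7 higher (2.86%). Among all genes at the same level 26.2% were called lower and 13.6% higher, and among all tested genes 16.7% and 23.9%. In BUTN vs TN 76 members were lower (31.0%) and 4 higher (1.63%), beside 23.7% and 11.0% at the same level and 14.8% and 23.1% of all tested genes. TNPR vs TN gave 93 lower (38.0%) and 7 higher (2.86%), beside 27.7% and 13.8% at the same level and 16.9% and 24.9% of all. TNBU vs TN gave 93 lower (38.0%) and 5 higher (2.04%), beside 27.6% and 12.5% at the same level and 16.5% and 25% of all. The share of members called lower was thus above that of genes at the same level in each SCFA group, and the share called higher was below it.

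The median log2 fold change of the members was -0.41 for PRTN, -0.40 for BUTN, -0.46 for TNPR and -0.49 for TNBU, where the median of all genes at the same level was -0.17, -0.18, -0.19 and -0.21. The 4 contrasts share the TN libraries and are not independent of each other. Since the members were selected on their level in Ctrl and TN, genes that are low there and high with SCFAs could not enter, and the genes at the same level have the same limit. Over all 483 ZNF genes tested, with no limit on level, 7.87% to 8.9% were called higher and the medians were -0.26 to -0.33. When libraries were scaled by their totals alone, in place of the TMM factors (0.913 to 0.957 for Ctrl and TN and 1.02 to 1.06 with SCFAs), the median of all tested genes moved up by 0.15 to 0.20 and that of the members to -0.25 to -0.30. In that scaling 76.2% to 80.5% of the member calls were lower, against 92.6% to 95% with TMM. Relative to the median of all tested genes, the members stood at -0.49, -0.48, -0.58 and -0.59, a distance that either scaling leaves the same by construction. All 8 SCFA libraries lay below the 4 others for 147 members (60%), beside 43.9% of genes at the same level. They lay above for 23 members (9.39%), beside 24.0%. In bulk RNA, fewer cells that express a gene and less RNA of it per cell cannot be told apart.

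**Figure D1:**
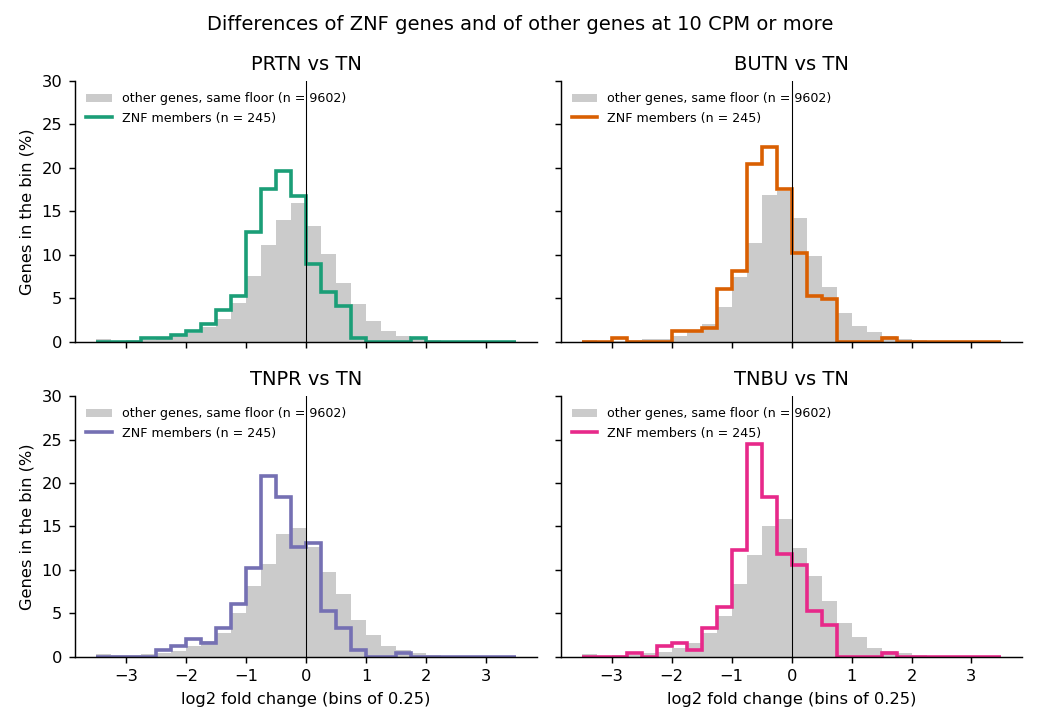
Percent of genes in each bin of log2 fold change against TN (x axis, bins of 0.25) for the 245 ZNF members (coloured line) and the 9602 other genes with at least 10 CPM for Ctrl and TN (grey), in 1 panel for each SCFA group. The member distribution lies to the left of the grey one in each panel, with medians of -0.41 to -0.49.

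More highly expressed members were called lower more often. Of the 33 members with at least 50 CPM, 17 were lower in PRTN (51.5%), 14 for BUTN, 17 for TNPR and 17 for TNBU, and 0 were called higher in any of these groups. All genes of that level were called lower in 29.9%, 27.3%, 32.7% and 32.4% and higher in 6.25% to 8.26%. Among the 125 members between 10 and 20 CPM, 37 were lower in PRTN (29.6%) and 6 higher (4.8%), where all genes of that level gave 23.1% and 22.6%. At low levels members differed from other genes more in the share that was higher, and at high levels more in the share that was lower. Across the members the mean log2 fold change over the SCFA groups had a Spearman correlation of -0.24 with level and 0.02 with the number of fingers, as a description over 245 genes of the same libraries. This level includes the TN libraries, the reference of each fold change, so the correlation with it is partly built in. For all genes, the PRTN medians also fell with level: -0.05 at 10 to 20 CPM, -0.11 at 20 to 50 and -0.26 at 50 or more.

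**Figure D2:**
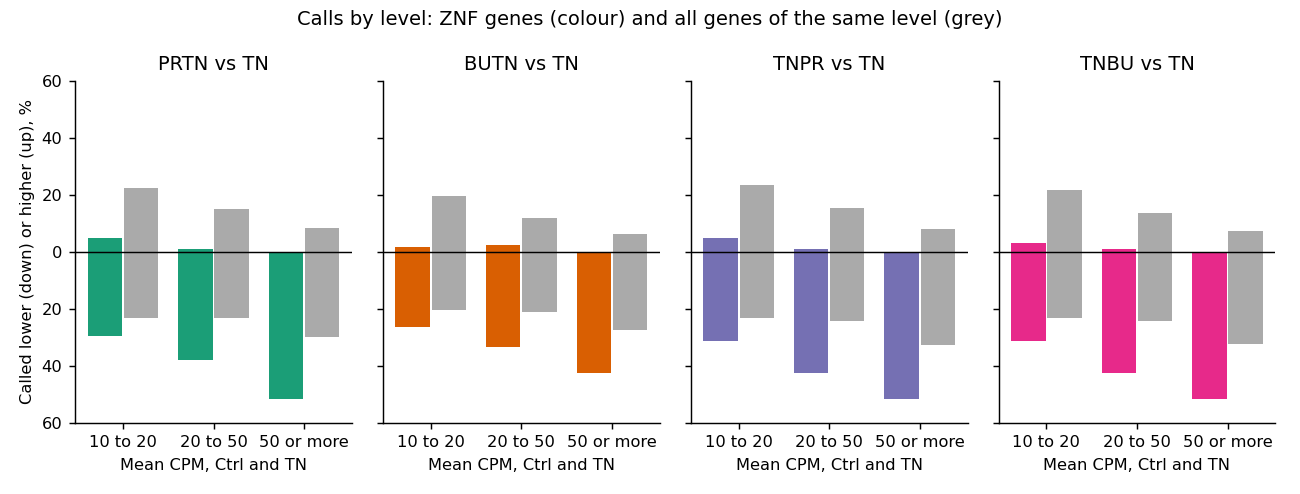
Percent of genes called lower (bars below 0) and higher (bars above 0) against TN, by mean CPM in Ctrl and TN (x axis), for ZNF members (colour) and all genes of the same level (grey). At 50 CPM or more, 42.4% to 51.5% of the members were lower and none of the 33 was higher.

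The largest fall in all 4 SCFA groups was that of ZNF114, a KRAB gene with 3 fingers (chromosome 19, 48270081 to 48287608 on GRCh38). Its level was 12.2 and 14.3 CPM for Ctrl, 12.3 and 10.1 for TN, 1.66 and 1.67 for PRTN, 1.38 and 1.41 for BUTN, 2.16 and 2.11 for TNPR, and 1.72 and 1.63 for TNBU. The SCFA libraries ranged from 1.38 to 2.16 CPM and the others from 10.1 to 14.3 CPM. The log2 fold change against TN was -2.73 ± 0.18 for PRTN, -2.99 ± 0.20 for BUTN, -2.37 ± 0.17 for TNPR and -2.72 ± 0.19 for TNBU (SE; adjusted p of at most 1.61e-07). ZNF114 was low even without SCFAs, so its fall moved few counts. ZNF662, which had no KRAB A box in the annotated protein, stood at 13.1 and 11.7 CPM for Ctrl, 14.04 and 11.8 for TN, 2.4 and 2.68 for PRTN, 3.44 and 3.79 for BUTN, 3.64 and 3.49 for TNPR, and 3.29 and 3.35 for TNBU. It fell less than ZNF114 in each group, with log2 fold changes of -2.34 ± 0.15 for PRTN, -1.82 ± 0.14 for BUTN, -1.84 ± 0.14 for TNPR and -1.94 ± 0.15 for TNBU. ZNF783, a KRAB gene on chromosome 7 whose promoter window is shown above, stood at 25 and 26.01 CPM for Ctrl, 26.9 and 27.04 for TN, 7.16 and 5.57 for PRTN, 8.25 and 7.58 for BUTN, 7.31 and 5.07 for TNPR, and 7.63 and 5.91 for TNBU. Its 8 SCFA libraries lay below the 4 others, while the SCFA groups overlapped each other. The log2 fold changes were -2.09 ± 0.15 for PRTN, -1.77 ± 0.14 for BUTN, -2.14 ± 0.15 for TNPR and -2.01 ± 0.16 for TNBU.

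Other large falls were those of ZNF827, ZNF618, ZNF532, ZNF518A, ZNF629 and ZNF436. ZNF827, which recruits the NuRD complex and is known from telomeres kept by recombination, stood at 55.6 and 55.2 CPM for Ctrl, 57.1 and 54.6 for TN, 14.2 and 13.1 for PRTN, 16.7 and 15.5 for BUTN, 13.6 and 10.8 for TNPR, and 15.2 and 12.6 for TNBU. It fell about evenly in the 4 groups, with log2 fold changes of -2.04 ± 0.10 for PRTN, -1.79 ± 0.10 for BUTN, -2.20 ± 0.11 for TNPR and -2.01 ± 0.11 for TNBU (adjusted p of at most 2.56e-08). ZNF618, a partner of UHRF2 that binds 5-hydroxymethylcytosine, stood at 64.5 and 72.2 CPM for Ctrl, 45.6 and 46.2 for TN, 12.4 and 11.6 for PRTN, 16.3 and 15.8 for BUTN, 11.02 and 8.09 for TNPR, and 13.5 and 10.4 for TNBU. It was lower in TN than in Ctrl already (-0.57 ± 0.10, adjusted p = 0.0101, under the fold limit), and lower again with SCFAs, with log2 fold changes of -1.94 ± 0.13 for PRTN, -1.51 ± 0.12 for BUTN, -2.27 ± 0.14 for TNPR and -1.96 ± 0.13 for TNBU. ZNF532, a member of a complex with ZMYND8, ZNF592 and ZNF687, stood at 67.3 and 73.2 CPM for Ctrl, 66.6 and 68.7 for TN, 20.1 and 19.02 for PRTN, 23.4 and 24.7 for BUTN, 17.3 and 17.3 for TNPR, and 22.5 and 17.5 for TNBU. Its log2 fold change was -1.79 ± 0.10 for PRTN, -1.49 ± 0.09 for BUTN, -1.97 ± 0.10 for TNPR and -1.77 ± 0.10 for TNBU. ZNF518A went from 59.8 ± 3.85 CPM (SD, n = 2) in TN to 16.6 ± 2.77 for PRTN and 19.5 ± 1.57 for TNBU. ZNF629 went from 46.96 ± 3.65 to 14.5 ± 1.11 and 11.8 ± 2.45 CPM, and ZNF436, a KRAB gene, from 44.004 ± 2.73 to 14.4 ± 0.232 and 13.3 ± 3.28 CPM. In each of these genes the 8 SCFA libraries lay below the 4 others.

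Of 14 members on a list of partners of chromatin complexes, 6 were called lower for PRTN, 6 for BUTN, 6 for TNPR and 5 for TNBU, and 0 higher, with medians of -0.30, -0.30, -0.38 and -0.45. These are 42.9%, 42.9%, 42.9% and 35.7% of the list, beside 35.5%, 31.0%, 38.0% and 38.0% of all members, whose medians of -0.41 to -0.49 were lower than those of the list. Besides ZNF827, ZNF532 and ZNF518A, the falls were of ZNF644, which brings the methyltransferases G9a and GLP to chromatin, of ZNF518B and, except in TNBU, of ZNF462. ZNF644 went from 102 ± 8.74 CPM (SD, n = 2) in TN to 37.5 ± 1.37 for PRTN, 43.5 ± 1.91 for BUTN, 34.99 ± 1.32 for TNPR and 36.9 ± 5.87 for TNBU. ZNF592 and ZNF687, which share a complex with ZNF532, were not called: their log2 fold changes were -0.06 ± 0.08 and 0.23 ± 0.08 for PRTN and -0.16 ± 0.08 and 0.04 ± 0.08 for TNBU. ZNF335, a subunit of a histone H3K4 methyltransferase complex, stood at 53.8 ± 1.89 CPM for TN and 53.5 ± 1.37 for PRTN. ZNF217, a protein of CoREST and CtBP corepressor complexes, went the other way, from 149.7 ± 1.75 CPM for TN to 219 ± 3.85 for BUTN. It passed the adjusted p (2.96e-04) but not the fold limit (0.55 ± 0.09).

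Far fewer members rose, and ZNF385A stood apart among them. ZNF385A, also known as HZF, is an RNA-binding protein and a p53 target that directs p53 towards genes of cell cycle arrest. Its level was 17.1 and 16.2 CPM for Ctrl, 13.6 and 14.9 for TN, 47.6 and 48.8 for PRTN, 48.02 and 44.8 for BUTN, 43.8 and 45.1 for TNPR, and 42.7 and 44.9 for TNBU. The 8 SCFA libraries ranged from 42.7 to 48.8 CPM and the 4 others from 13.6 to 17.1 CPM. Log2 fold changes were 1.76 ± 0.08 for PRTN, 1.71 ± 0.08 for BUTN, 1.65 ± 0.08 for TNPR and 1.62 ± 0.08 for TNBU (adjusted p of at most 9.76e-09), and in each SCFA group it was the only member with a log2 fold change of 1 or more. By contrast, 34 members in PRTN, 26 for BUTN, 37 for TNPR and 32 for TNBU had a log2 fold change of -1 or lower.

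The second rise was that of ZNF277, a 3-finger protein without KRAB that binds the ribosomal protein uS5. Its level was 17.4 and 17.5 CPM for Ctrl, 18.99 and 18.99 for TN, 33.9 and 31.2 for PRTN, 25.6 and 27.4 for BUTN, 32.3 and 34.01 for TNPR, and 30.8 and 29.1 for TNBU. It was called in PRTN (0.78 ± 0.08), TNPR (0.80 ± 0.08) and TNBU (0.66 ± 0.08), and in BUTN it passed the adjusted p but not the fold limit (0.48 ± 0.08). Next came KRAB genes of chromosome 19. ZNF611 stood at 19.9 and 22.2 CPM for Ctrl, 21.1 and 22.8 for TN, 37.05 and 34.3 for PRTN, 34.9 and 33.1 for BUTN, 36.3 and 37.9 for TNPR, and 35.6 and 33.4 for TNBU. It rose in all 4 groups, with log2 fold changes of 0.70 ± 0.08 for PRTN, 0.63 ± 0.08 for BUTN, 0.76 ± 0.08 for TNPR and 0.65 ± 0.08 for TNBU. ZNF468 stood at 14.9 and 16.03 CPM for Ctrl, 19.7 and 16.6 for TN, 29.8 and 30.3 for PRTN, 28.2 and 28.95 for BUTN, 28.3 and 24.9 for TNPR, and 26.01 and 24.7 for TNBU, with log2 fold changes of 0.73 ± 0.09 for PRTN and 0.66 ± 0.09 for BUTN, which were called, and 0.55 ± 0.10 for TNPR and 0.48 ± 0.10 for TNBU, which were under the fold limit. Both genes lay above the Ctrl and TN libraries in all 8 SCFA libraries. Calls near the fold limit were ZNF319 in BUTN (0.60 ± 0.09), ZNF250 in TNBU (0.60 ± 0.08), and ZNF558 in TNPR (0.65 ± 0.09) and TNBU (0.60 ± 0.10). RSEM divides reads that match several genes, and 54.3% of the member values are not whole numbers. In the reference transcripts, 13.6% of the 50-base words of ZNF611, 9.92% of ZNF468 and 9.9% of ZNF765 also occur in another gene, against a median of 0.312% over the members, so their levels are less certain than those of ZNF385A and ZNF277, which share none.

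**Figure D3:**
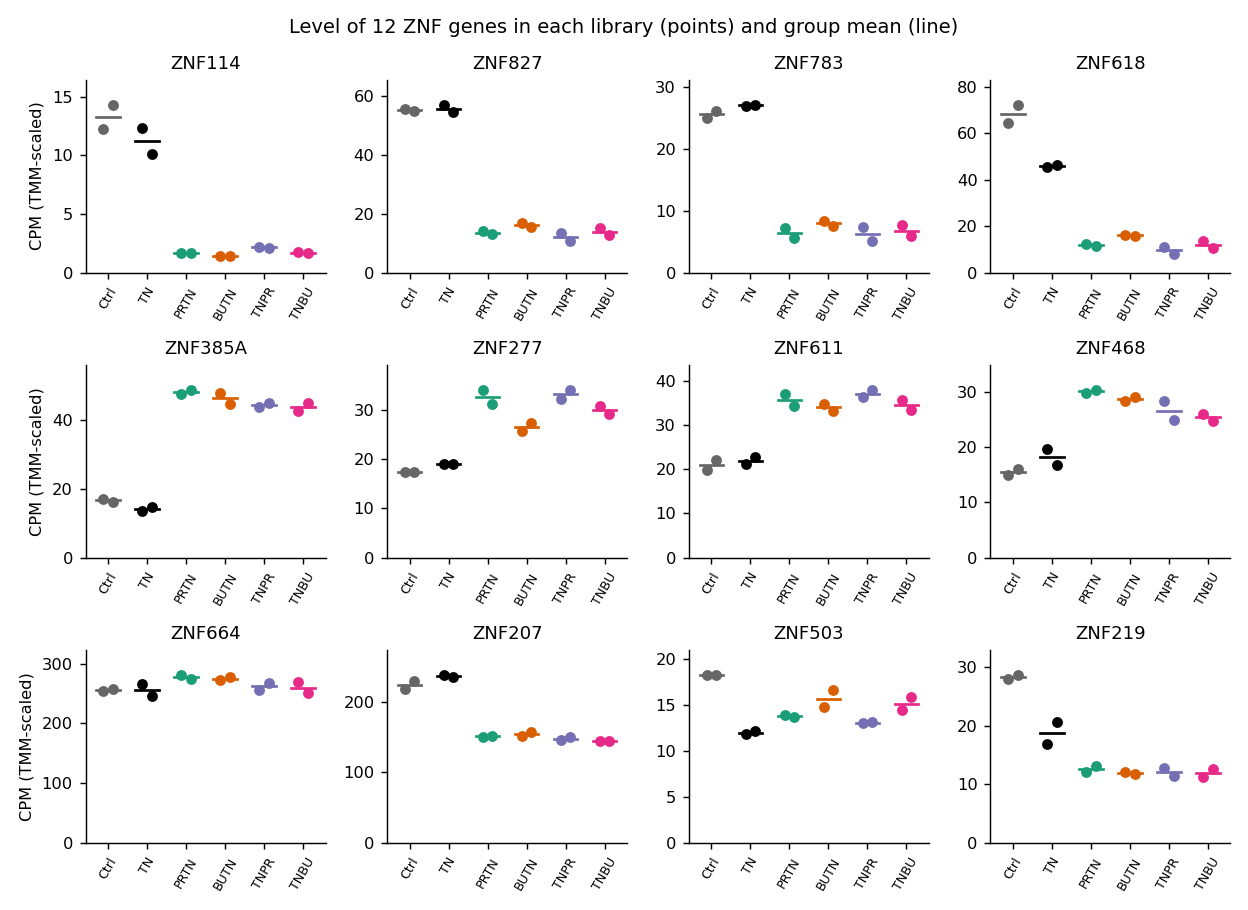
CPM scaled with TMM factors (y axis, from 0) of 12 ZNF genes in each of the 12 libraries (points) with the mean of each group of 2 (line). In the top row all 8 SCFA libraries lie below Ctrl and TN, in the middle row above them, and the bottom row shows ZNF664 and ZNF207 at high level and the pair called in TN vs Ctrl.

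The members with the highest CPM, which is not corrected for transcript length, went different ways. ZNF664 stood at 255 and 257 CPM for Ctrl, 266 and 246 for TN, 281 and 274 for PRTN, 272 and 278 for BUTN, 256 and 269 for TNPR, and 269 and 250.3 for TNBU. These ranges overlapped and none of its SCFA contrasts passed the adjusted p (lowest 0.102). ZNF207, also called BUGZ, which loads BUB3 at kinetochores, stood at 218 and 230.1 CPM for Ctrl, 238 and 236 for TN, 150.1 and 152 for PRTN, 152 and 157 for BUTN, 147 and 149.5 for TNPR, and 144 and 144 for TNBU. It fell in all 4 groups, with log2 fold changes of -0.65 ± 0.05 for PRTN, -0.62 ± 0.05 for BUTN, -0.68 ± 0.05 for TNPR and -0.72 ± 0.05 for TNBU. ZNF638, which silences unintegrated retroviral DNA with the HUSH complex, went from 177 ± 8.98 CPM (SD, n = 2) in TN to 124 ± 3.13 for PRTN and 121 ± 10.3 for TNPR, with log2 fold changes of -0.52 ± 0.09 for PRTN, -0.47 ± 0.09 for BUTN, -0.55 ± 0.09 for TNPR and -0.52 ± 0.09 for TNBU that passed the adjusted p and not the fold limit. ZNF608 went from 122 ± 3.17 CPM for TN to 78.96 ± 3.26 for PRTN and 81.3 ± 11.8 for TNBU. It was called lower in PRTN (-0.62 ± 0.09), TNPR (-0.70 ± 0.09) and TNBU (-0.59 ± 0.09), and was -0.41 ± 0.09 for BUTN.

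Members with and without KRAB were both lower. In PRTN 46 of 142 KRAB members were called lower (32.4%) and 5 higher, and 41 of 103 members without KRAB were lower (39.8%) and 2 higher. The counts in BUTN were 42 and 34 lower, in TNPR 45 and 48, and in TNBU 48 and 45. Medians of the KRAB members were -0.39, -0.37, -0.39 and -0.44, and those of the others were -0.45, -0.43, -0.53 and -0.53, in the order PRTN, BUTN, TNPR and TNBU. The members on chromosome 19 had medians of -0.37, -0.37, -0.37 and -0.41. Outside chromosome 19, 0 of 64 KRAB members were called higher in PRTN, BUTN and TNPR and 1 for TNBU, while on it 5 of 78 were higher in PRTN, 2 for BUTN, 5 for TNPR and 2 for TNBU. Of these, 5, 2, 4 and 1 lay in a single stretch from 52012765 to 53580269, described below. Some of them share sequence words with other genes, as given above for ZNF611, ZNF468 and ZNF765, so their levels are less certain. The groups of members were compared by counts alone, and their difference was not tested.

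**Figure D4:**
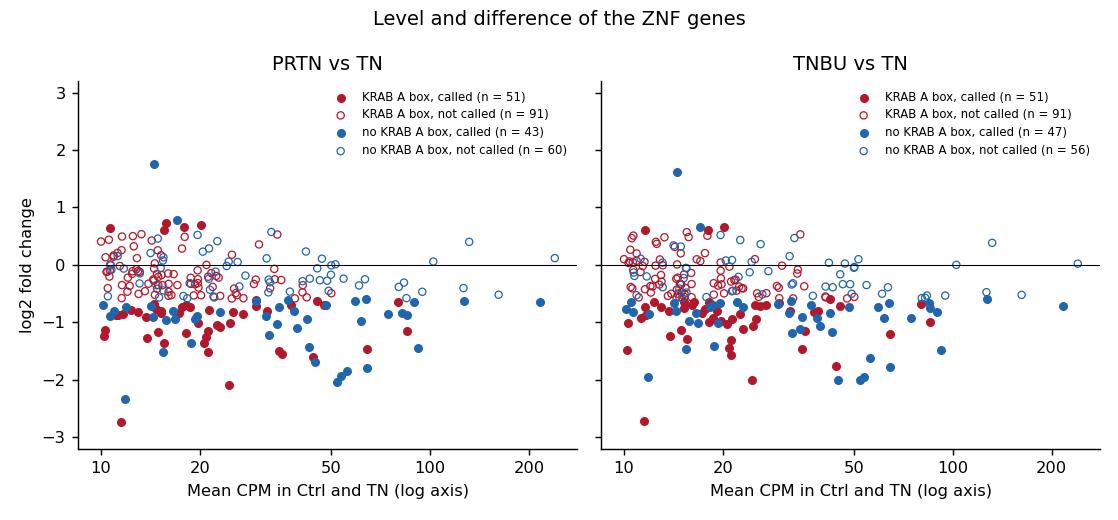
Log2 fold change against TN (y axis) and mean CPM in Ctrl and TN (x axis, log scale) of the 245 members in PRTN and TNBU, in red with and in blue without a KRAB A box, filled where called. Filled points below 0 occur at all levels and in both colours, and ZNF385A is the blue point above 1.5.

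KRAB proteins whose targets are known gave a mixed picture: of 12 members on this list, 5 were called lower for PRTN, 4 for BUTN, 4 for TNPR and 4 for TNBU (33.3% to 41.7%, beside 31.0% to 38.0% of all members), and 1, 0, 1 and 0 higher, with medians of -0.39, -0.35, -0.39 and -0.41. ZNF93, a repressor of L1 retrotransposons, stood at 13.6 and 14.3 CPM for Ctrl, 15.9 and 15.1 for TN, 6.14 and 6.73 for PRTN, 7.25 and 7.19 for BUTN, 6.34 and 6.51 for TNPR, and 6.96 and 6.25 for TNBU. It fell in all 4 groups (-1.27 for PRTN, -1.10 for BUTN, -1.27 for TNPR and -1.23 for TNBU). ZNF202, a repressor of lipid metabolism genes, went from 23.05 ± 0.104 CPM (SD, n = 2) in TN to 9.72 ± 1.01 for PRTN and 8.47 ± 0.613 for TNBU. ZNF91, a repressor of SVA retrotransposons, was -0.53 ± 0.10 for PRTN and -0.49 ± 0.11 for TNBU, under the fold limit. ZNF274, which brings SETDB1 to the 3′ ends of ZNF genes themselves, was called lower only in PRTN (-0.71 ± 0.08); it was -0.42 ± 0.08 for BUTN, -0.57 ± 0.08 for TNPR and -0.58 ± 0.08 for TNBU. ZNF10, the gene from which the KRAB repressor domain is commonly taken, stood at 10.7 ± 2.19 CPM for TN and 9.96 ± 0.159 for PRTN (adjusted p = 0.58).

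Neighbouring members moved in opposite directions in a stretch of chromosome 19 from 52012765 to 53580269, which holds 19 members, 18 of them with KRAB. This grouping, members less than 1 Mb apart and at least 6 together, was chosen after the values were seen. In PRTN 5 of the 19 were called higher and 5 lower, and the counts were 2 and 5 for BUTN, 4 and 5 for TNPR and 1 and 5 for TNBU, with medians of -0.11, -0.17, 0.08 and 0.04. The share lower was 26.3% in each contrast, beside 26.2%, 23.7%, 27.7% and 27.6% of all genes at the same level. The shares higher were 26.3%, 10.5%, 21.1% and 5.26%, beside 13.6%, 11.0%, 13.8% and 12.5%. ZNF614, ZNF432, ZNF160, ZNF525 and ZNF813 were the lower ones in each contrast. ZNF614 was -1.35 for PRTN, -1.18 for BUTN, -1.46 for TNPR and -1.28 for TNBU, whereas ZNF841 was 0.50 for PRTN, 0.36 for BUTN, 0.71 for TNPR and 0.40 for TNBU and was called in TNPR alone. The annotated span of ZNF841 lies nearly whole within that of ZNF432, on the same strand. ZNF432 was -1.13 for PRTN, -1.08 for BUTN, -0.95 for TNPR and -1.02 for TNBU. In the reference transcripts 1.91% of the 50-base words of ZNF841 and 0.327% of those of ZNF432 occur in another gene. How reads were divided between them was not examined. ZNF841 stood at 13.4 and 12.1 CPM for Ctrl, 14.4 and 13.6 for TN, 19.6 and 19.9 for PRTN, 17.4 and 18.5 for BUTN, 23.1 and 22.6 for TNPR, and 18.2 and 18.7 for TNBU. ZNF28 and ZNF468 overlap on the same strand over nearly all of ZNF468, and ZNF28 went from 17.6 ± 0.656 CPM (SD, n = 2) in TN to 26.8 ± 1.42 for PRTN and 26.1 ± 2.39 for TNBU. ZNF347 (1.84% shared words) was 0.65 for PRTN, 0.53 for BUTN, 0.61 for TNPR and 0.51 for TNBU, and ZNF765 was 0.64 for PRTN, 0.51 for BUTN, 0.68 for TNPR and 0.51 for TNBU. Beside them ZNF525 was -0.90 for PRTN, -0.71 for BUTN, -0.80 for TNPR and -0.80 for TNBU, and its end overlaps the start of ZNF765 on the same strand.

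**Figure D5:**
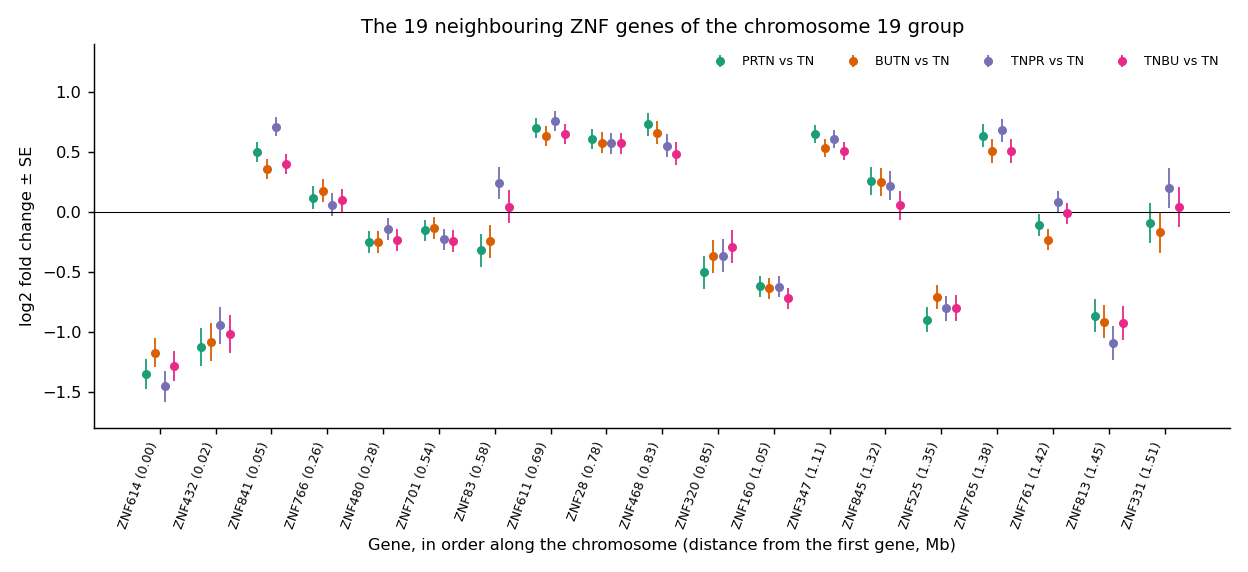
Log2 fold change against TN with its SE (y axis) of the 19 neighbouring members on chromosome 19 in the 4 SCFA groups, in order along the chromosome with the distance from the first in Mb (x axis). Some adjacent or overlapping genes lie on opposite sides of 0, as ZNF432 and ZNF841 or ZNF525 and ZNF765, and others on the same side, as ZNF611, ZNF28 and ZNF468, while ZNF83, ZNF761 and ZNF331 change sign between the groups.

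The other 8 such groups held members that stood mostly below 0. The 35 members at the end of the long arm of chromosome 19 (55576774 to 58481230) had 9, 9, 10 and 10 called lower and 0 higher, with medians of -0.41, -0.42, -0.41 and -0.50. All genes at the same level were called lower in 26.2%, 23.7%, 27.7% and 27.6%, which is near the share in this group. Of all members 35.5%, 31.0%, 38.0% and 38.0% were called lower. At the end of chromosome 12 (132918306 to 133214832), 4 of 6 members were called lower in each contrast (66.7%), with medians of -0.90, -0.80, -0.93 and -0.90. These were ZNF26, ZNF84, ZNF140 and ZNF268, and ZNF84 went from 96.2 ± 8.07 CPM (SD, n = 2) in TN to 43.5 ± 0.892 for PRTN and 48.2 ± 5.8 for TNBU. On chromosome 7 (149126416 to 149497817), 3 of 6 were lower in each contrast, ZNF783, ZNF282 and ZNF777, while ZNF212 in the same stretch was 0.25 ± 0.09 for PRTN. In the group of 7 around ZNF224 on chromosome 19 (43607224 to 44500524), 1, 0, 1 and 2 were lower, with medians of -0.07, -0.07, -0.11 and -0.24.

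On a list of widely expressed DNA-binding factors without KRAB, 5 of 11 members were called lower for PRTN, 4 for BUTN, 6 for TNPR and 7 for TNBU (36.4% to 63.6%, beside 31.0% to 38.0% of all members), and 0 higher, with medians of -0.57, -0.49, -0.63 and -0.64. ZNF76 and ZNF143 encode related proteins that bind the same promoter sites. ZNF76 stood at 49.996 and 48.4 CPM for Ctrl, 43.2 and 41.03 for TN, 15.2 and 15.9 for PRTN, 19.1 and 18.4 for BUTN, 18.4 and 17.4 for TNPR, and 17.1 and 20.6 for TNBU. It fell in all 4 groups (-1.44 for PRTN, -1.17 for BUTN, -1.23 for TNPR and -1.16 for TNBU), while ZNF143 was 0.23 for PRTN, 0.16 for BUTN, 0.10 for TNPR and 0.08 for TNBU and was not called. ZNF148 and ZNF281, a pair of related factors of GC-rich promoters, were -0.59 ± 0.08 and -0.47 ± 0.08 for PRTN and -0.67 ± 0.08 and -0.53 ± 0.08 for TNBU, of which the values of ZNF148 passed the fold limit. ZNF24 went from 67.1 ± 2.79 CPM (SD, n = 2) in TN to 34.1 ± 1.7 for PRTN. ZNF410, which controls the gene of the NuRD subunit CHD4, was -0.27 for PRTN, -0.18 for BUTN, -0.35 for TNPR and -0.34 for TNBU, but 85.0% of its 50-base words also occur in another annotated gene and its level is uncertain.

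Members that act on RNA, ribosomes or translation did not share a direction. Of 9 on this list, 1 was called higher in each contrast and 2, 1, 2 and 2 were lower, with medians of 0.06, -0.10, 0.01 and 0.00. These are 11.1% higher in each contrast and 22.2%, 11.1%, 22.2% and 22.2% lower. Of all members 1.63% to 2.86% were higher and 31.0% to 38.0% lower. The rise was ZNF385A, and the falls were ZNF207 and, except in BUTN, ZNF326, which links RNA polymerase elongation to splicing in the DBIRD complex. ZNF326 went from 53.9 ± 1.6 CPM (SD, n = 2) in TN to 33.2 ± 0.809 for PRTN, 38.4 ± 0.776 for BUTN and 31.2 ± 2.76 for TNPR. ZNF598, the ubiquitin ligase that detects collided ribosomes, stood at 51.8 ± 6.82 CPM for TN and 55.6 ± 1.67 for PRTN (adjusted p = 0.321). ZNF622, a factor of the maturing large ribosomal subunit, stood at 20.2 and 18.4 CPM for Ctrl, 23.2 and 22.3 for TN, 32.9 and 32.4 for PRTN, 33.1 and 34.3 for BUTN, 31.04 and 31.4 for TNPR, and 32.8 and 32.5 for TNBU. All 8 SCFA libraries lay above the others, with log2 fold changes of 0.52 for PRTN, 0.57 for BUTN, 0.46 for TNPR and 0.52 for TNBU that passed the adjusted p and stayed just under the fold limit.

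The corepressor machinery with which KRAB proteins work was measured through 28 genes without a ZNF symbol. Of these 4 were called lower and 2 higher in PRTN, 4 and 1 for BUTN, 8 and 2 for TNPR and 7 and 2 for TNBU, with medians of -0.27, -0.27, -0.34 and -0.29. The shares lower were 14.3%, 14.3%, 28.6% and 25%, against 26.2%, 23.7%, 27.7% and 27.6% of genes at 10 CPM or more. These shares were below this background in PRTN and BUTN and near it in TNPR and TNBU. The medians of the list, however, were lower than the -0.17, -0.18, -0.19 and -0.21 of those genes. The shares higher were 7.14%, 3.57%, 7.14% and 7.14%, against 13.6%, 11.0%, 13.8% and 12.5%. The list was not limited by level, and ATF7IP2 averaged 1.92 CPM in Ctrl and TN. TRIM28, which encodes KAP1 and is named for its role, was -0.26 for PRTN, -0.28 for BUTN, -0.37 for TNPR and -0.33 for TNBU and was not called. SETDB1 stood at 60.2 and 59.5 CPM for Ctrl, 57.3 and 57.1 for TN, 30.9 and 31.1 for PRTN, 34.8 and 35.9 for BUTN, 34.1 and 32.8 for TNPR, and 36.1 and 34.7 for TNBU. It fell in all 4 groups (-0.88 ± 0.06 for PRTN, -0.69 ± 0.06 for BUTN, -0.77 ± 0.06 for TNPR and -0.69 ± 0.06 for TNBU). The largest fall was of CHD3, a NuRD subunit whose PHD fingers bind histone tails, with -1.71 for PRTN, -1.71 for BUTN, -1.70 for TNPR and -1.74 for TNBU. FAM208A, the HUSH subunit now called TASOR, was -0.74 for PRTN, -0.79 for BUTN, -0.78 for TNPR and -0.79 for TNBU, and ATF7IP2, a SETDB1 partner of low level, was 0.89 for PRTN, 0.79 for BUTN, 0.85 for TNPR and 0.76 for TNBU. MPHOSPH8 also rose, with 0.70 for PRTN, 0.57 for BUTN, 0.81 for TNPR and 0.70 for TNBU, and was under the fold limit in BUTN alone. HDAC1 was 0.57 for PRTN, 0.55 for BUTN, 0.48 for TNPR and 0.46 for TNBU. These HDAC1 values passed the adjusted p and not the fold limit.

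Other families of C2H2 genes at the same level were counted beside the ZNF genes, with no test of the difference. Of 31 ZBTB genes, which carry a BTB domain, 10 were called lower for PRTN, 10 for BUTN, 13 for TNPR and 11 for TNBU, and 2, 1, 2 and 1 higher, with medians of -0.42, -0.35, -0.50 and -0.49. The shares lower were 32.3%, 32.3%, 41.9% and 35.5%, beside 26.2%, 23.7%, 27.7% and 27.6% of all genes at the same level. ZBTB38, a reader of methylated DNA, went from 352 and 344 CPM for TN to 67.5 and 65.6 for PRTN and 69.5 and 53.01 for TNBU, and ZBTB8A had log2 fold changes of -2.94 for PRTN, -2.25 for BUTN, -3.07 for TNPR and -2.93 for TNBU. Of 13 ZSCAN and ZKSCAN genes 4 were lower and 0 higher in each contrast, with medians of -0.05, -0.10, -0.03 and -0.09. Of 8 ZFP genes 3 were lower in each, and 2, 0, 1 and 1 were higher. Medians of the ZFP genes were -0.10, -0.06, -0.02 and -0.08, so that by median these and the ZSCAN and ZKSCAN genes stood nearer to 0 than the ZNF members did. Yet 37.5% of the ZFP genes and 30.8% of the ZSCAN and ZKSCAN genes were called lower in each contrast. Of the ZNF members 31.0% to 38.0% were called lower.

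TNF-α alone changed few members. In TN vs Ctrl 2 of 245 were called (0.816%), both lower, beside 1.3% of all tested genes called in either direction. ZNF503, a corepressor of the NET family, stood at 18.2 and 18.2 CPM for Ctrl, 11.8 and 12.1 for TN, 13.9 and 13.6 for PRTN, 14.8 and 16.5 for BUTN, 12.99 and 13.1 for TNPR, and 14.4 and 15.8 for TNBU. The log2 fold change in TN vs Ctrl was -0.61 ± 0.09 (SE; limma-voom, adjusted p = 0.00302). All SCFA libraries lay between both groups, with log2 fold changes against TN of 0.21 for PRTN, 0.39 for BUTN, 0.13 for TNPR and 0.34 for TNBU, none over the fold limit. ZNF219, a partner of the cartilage factor SOX9, stood at 27.996 and 28.6 CPM for Ctrl, 16.8 and 20.7 for TN, 12.1 and 13.2 for PRTN, 12.1 and 11.7 for BUTN, 12.7 and 11.3 for TNPR, and 11.3 and 12.6 for TNBU. It was -0.60 ± 0.10 in TN vs Ctrl (adjusted p = 0.00579), and the TN replicates differed from each other by more than the Ctrl replicates did. In PRTN it was -0.57 ± 0.11, just under the fold limit, and it was called lower in BUTN (-0.65 ± 0.11), TNPR (-0.63 ± 0.11) and TNBU (-0.64 ± 0.11). A further 6 members passed the adjusted p alone, namely ZNF618 (-0.57), ZNF770 (-0.51), ZNF362 (-0.41), ZNF655 (0.24), ZNF286A (0.38) and ZNF267 (0.46), chosen here after their values were seen. ZNF267, a KRAB gene, stood at 14.3 and 15.2 CPM for Ctrl, 21.4 and 19.3 for TN, 13.95 and 14.2 for PRTN, 14.1 and 14.2 for BUTN, 12.7 and 12.03 for TNPR, and 14.4 and 11.7 for TNBU. It was higher in both TN libraries than in all 10 others, and it was called lower than TN in TNPR (-0.71 ± 0.10) and TNBU (-0.64 ± 0.10) and was -0.53 ± 0.10 for PRTN and -0.52 ± 0.10 for BUTN. At an unadjusted p under 0.05 there were 46 members (18.8%), beside 17.0% of all tested genes.

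Propionate and butyrate were compared at the doses used, 15 and 3 mM, so that compound and dose cannot be told apart. The compounds are straight-chain carboxylic acids, of which butyrate is longer by a methylene group. In PRTN vs BUTN 0 members were called with limma-voom, edgeR or DESeq2 (background 0.168% of all tested genes), and 28 had an unadjusted p under 0.05. In TNPR vs TNBU 0 were called with these tools (background 0.00822%) and 15 had an unadjusted p under 0.05. The lowest adjusted p belonged to ZNF33B in PRTN vs BUTN (-0.38 ± 0.09, adjusted p = 0.0761) and to ZNF841 in TNPR vs TNBU (0.31 ± 0.08, adjusted p = 0.345). For 238 members in each of these contrasts the 95% interval of the difference lay within 1.5-fold, and for all 245 within 2-fold. For ZNF385A it ran from -0.09 to 0.20 in PRTN vs BUTN, and for ZNF114, which has few counts, from -0.27 to 0.79. The intervals used a single variance per gene for all groups, although replicates differed most in TNPR and TNBU. Intervals with these groups may be too narrow. Each interval was made for a single gene, with no correction over the 245 genes. A difference over 1.5-fold between the SCFAs at these doses is therefore not excluded for all 238 members together. The intervals reached a median of 0.22 on the log2 scale to either side, so smaller differences could be missed.

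Timing was compared within each SCFA. In TNPR vs PRTN 0 members were called (background 0.16% of all tested genes), with 32 at an unadjusted p under 0.05, and in TNBU vs BUTN 0 (background 0.267%), with 37. edgeR and DESeq2 also called 0 members in both. ZNF337 had the lowest adjusted p in TNPR vs PRTN (0.56 ± 0.11, adjusted p = 0.0599), and ZNF215 in TNBU vs BUTN (-0.33 ± 0.10, adjusted p = 0.152). The 95% interval, again with a single variance per gene for all groups, lay within 1.5-fold for 233 and 238 members and within 2-fold for all 245. Members below 0, lower when the SCFA came after TNF-α, were 157 of 245 in TNPR vs PRTN and 181 in TNBU vs BUTN (64.1% and 73.9%), beside 58.3% and 58.9% of genes at the same level, with medians of -0.04 and -0.09 for the members. These shares were not tested against each other. The 2 TNPR cultures differed in their member median, with an SD of 0.091, and the 2 TNBU cultures with an SD of 0.098. Both timing medians were smaller in size than these SDs. Whether the shares go beyond such a spread of cultures was not tested. The test of whether the timing difference itself differed between the SCFAs called 0 members with limma-voom, edgeR and DESeq2, with 4 at an unadjusted p under 0.05.

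ZNF genes below the limit were called in both directions in similar numbers. Of 238 that could be tested, 36 were called higher and 45 lower in PRTN, 35 and 33 for BUTN, 34 and 39 for TNPR and 33 and 40 for TNBU, with medians of -0.11, -0.08, -0.08 and -0.08. These ZNF genes were called higher in 15.1%, 14.7%, 14.3% and 13.9% and lower in 18.9%, 13.9%, 16.4% and 16.8%. The other genes below the limit were called higher in 31.2% to 33.9% and lower in 8.74% to 10.1%, and had medians of 0.49 to 0.57. The share higher was thus below that of the other genes and the share lower above it. The largest mean rises were of genes near 0 for Ctrl and TN. ZNF385B, a paralog of ZNF385A, stood at 0.584 and 0.251 CPM for Ctrl, 0.149 and 0.144 for TN, 5.38 and 4.99 for PRTN, 5.22 and 3.27 for BUTN, 3.38 and 4.51 for TNPR, and 3.82 and 3.45 for TNBU. ZNF488, a partner of OLIG2 in oligodendrocytes, stood at 0.687 and 0.609 CPM for Ctrl, 0.41 and 0.538 for TN, 4.43 and 5.08 for PRTN, 4.00 and 4.02 for BUTN, 4.68 and 5.63 for TNPR, and 4.66 and 4.71 for TNBU. ZNF560 had at most 0.0372 CPM for Ctrl and TN and 0.533 to 1.06 CPM with SCFAs, and ZNF280A had no count in Ctrl and TN and 0.211 to 0.846 CPM with SCFAs.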

How the data were processed

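The deposited values are expected counts for 58278 genes in each of 12 libraries, which the authors estimated with RSEM (version not given in the sources used here) on GENCODE release 26 after aligning reads of stranded mRNA libraries to GRCh38 with STAR 2.6.1a and checking them with FastQC 0.11.5. They were neither scaled nor filtered, RSEM divides reads that match several genes, and its strand setting is not given. Groups came from the label of each library. TNF-α and the SCFAs are named in each library's own label, although a general treatment text shared by all labels speaks of thapsigargin and JQ1.

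Counts were tested unrounded in R 4.3.3 with limma 3.58.1 (voom) and TMM factors of edgeR 4.0.16, with a mean for each of 6 groups fitted to all 12 libraries. Genes were kept where the geometric mean of the count plus 1, minus 1, was at least 1, which left 24342 and removed 33936 genes. Expression in the text is TMM-scaled CPM, and the limit of 10 CPM used library totals. Calls needed a fold change over 1.5 and a Benjamini-Hochberg adjusted p under 0.05. Intervals and floors cover counting error or the spread of 2 replicates only. The fit was tested on simulated data.

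Positions, proteins and transcripts come from GENCODE release 44, where all 245 members matched. Fingers were counted by the pattern C, 2 to 4 residues, C, 12 residues, H, 3 to 5 residues, H, and KRAB A boxes with a sequence profile (E of at most 0.001). Promoters come from RefSeq (GRCh38.p14).

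The members, lists and named genes were chosen with earlier results of these data known. Named members are the 6 largest called falls and rises in each SCFA group, those called in TN vs Ctrl, the 5 highest, those next to the limit, list members, and the 5 lower ZNF genes with the largest rise. Alternatives were other scalings, filters and limits, edgeR, DESeq2 1.42.0 (both on counts rounded to whole numbers), the replicate number as a block, only the groups compared, Ctrl as reference and leaving out each library. Same-numbered libraries were not treated as pairs, since the labels do not pair them and there are only 2 numbers.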

Additional observations from a re-analysis of the deposited data

How the results depend on the processing

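Of 481 values recomputed under the alternatives, 382 stayed within 1.5 times the reported count or within the spread of replicates, 99 moved and 0 reversed. Of 940 values of named members, 901 kept their call, 39 fell under a limit and 0 reversed. These were mostly rises near 1.5-fold, ZNF250 and ZNF558 in TNBU in 10 alternatives each and ZNF319 in BUTN in 6, and ZNF219 lost its call in TN vs Ctrl without TN replicate 1 (-0.45) and without Ctrl replicate 2 (-0.59). Values below are in the order PRTN, BUTN, TNPR and TNBU against TN.

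By library size alone, members called higher were 6.53%, 6.12%, 6.12% and 6.53%, those called lower were 19.6% (BUTN), 25.3% (TNPR) and 24.1% (TNBU), and medians were -0.25, -0.25, -0.29 and -0.30. At over 2-fold, 13.9%, 10.6%, 15.1% and 13.1% were lower, 0.408% were higher in each, and 0 were called in TN vs Ctrl. A limit of 20 CPM gave 0.833% higher in PRTN, TNPR and TNBU and medians of -0.52 and -0.49 in PRTN and BUTN. A limit of 10 CPM in the SCFA libraries gave 5.41%, 4.05%, 4.95% and 4.05% higher and medians of -0.32, -0.30, -0.37 and -0.39. Every tested ZNF gene gave 8.9%, 8.07%, 8.49% and 7.87% higher and medians of -0.28, -0.26, -0.27 and -0.33. Against Ctrl, 4.49% (PRTN), 4.9% (BUTN) and 3.27% (TNBU) were higher. Members with under 5% shared words, a choice made after seeing the data, gave 1.58% higher in PRTN, 1.05% in BUTN and a median of -0.41 in PRTN. In BUTN the share higher was 2.45% with DESeq2 and with relative log expression size factors, 2.62% at a limit of 5 CPM and 2.98% at 10 CPM over all 12 libraries, and in TNBU it was 1.22% with no filter and with the filter of edgeR.

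Medians in PRTN and BUTN moved by more than their replicate SD of under 0.01, to -0.40 and -0.39 with relative log expression, -0.35 and -0.37 at 5 CPM, -0.35 and -0.34 at 10 CPM over all libraries, -0.44 and -0.44 with the filter of edgeR, -0.43 and -0.43 with no filter, and -0.42 and -0.41 with only the groups compared. The cause of these moves was not tested.

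With a replicate block, 35.9%, 31.8%, 38.0% and 38.0% were lower, 2.86%, 1.63%, 2.86% and 2.04% higher, and the median in PRTN was -0.41; it changed no call count by over 1.5 times. Deviations of same-numbered libraries correlated from -0.0791 to 0.240 over 15 pairs of groups, 1 of them over 0.1.

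Leaving out each library in turn, the share lower ranged from 35.9% to 43.7%, 31.0% to 37.6%, 37.1% to 48.6% and 35.1% to 49.4%, and the share higher from 2.04% to 3.27%, 1.22% to 1.63%, 2.04% to 3.67% and 0.408% (without TNBU replicate 1) to 3.27% (without TNBU replicate 2). Medians ranged from -0.49 to -0.40, -0.46 to -0.38, -0.57 to -0.46 and -0.58 to -0.43. In TN vs Ctrl 0.408% (without Ctrl replicate 2) to 1.22% (without Ctrl replicate 1) were called, and in TNBU vs BUTN 0 to 0.816% (without TNBU replicate 1). A lone sample was assumed to vary like the other groups. Levels of 55 members that share at least 5% of their 50-base words with other genes, and most of all ZNF23, ZNF410 and ZNF286A, with at least 50%, depend on how RSEM divides reads. KRAB boxes were found by a profile, with 2 replicates a group the SE of single genes is wide, and genes near 0 have few counts.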

Other observations

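Some falls among the more highly expressed members, chosen after their values were seen, were of genes not described above. ZNF33A, a KRAB gene, stood at 67.7 and 68.7 CPM for Ctrl, 74.2 and 63.98 for TN, 24.5 and 25.4 for PRTN, 28.1 and 28.6 for BUTN, 30.8 and 25.98 for TNPR, and 29.2 and 30.4 for TNBU. Its log2 fold changes were -1.46 ± 0.09 for PRTN, -1.28 ± 0.09 for BUTN, -1.28 ± 0.09 for TNPR and -1.21 ± 0.09 for TNBU (limma-voom, adjusted p of at most 2.33e-07). ZNF655, which interacts with VAV1, went from 86.4 ± 5.3 CPM (SD, n = 2) in TN to 47.6 ± 0.33 with propionate first, 51.9 ± 0.243 with butyrate first, and 44.6 ± 1.02 and 45.3 ± 0.67 with these after TNF-α, and was called lower each time. ZNF292, whose protein has 14 fingers by the pattern, went from 91.6 ± 7.36 CPM for TN to 50.1 ± 1.96 for PRTN and 55.5 ± 13.2 for TNBU, and was called lower in the 4 SCFA groups. ZNF706 and ZNF106 stood at 59.7 ± 4.93 and 111 ± 2.73 CPM for TN and at 59.996 ± 0.104 and 115 ± 6.26 for PRTN, and none of their SCFA contrasts passed the adjusted p.

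ZNF703, just below the limit, averaged 9.83 CPM in the Ctrl and TN libraries and 17.8 CPM in the SCFA libraries, and ZNF830 averaged 9.99 and 5.53 CPM, so that genes next to the limit moved both ways. No member met the rules for a single library far from its group, since every group holds 2 libraries.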
